A study of Caenorhabditis elegans with 30 samples.

Results

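*ddn-1*, *Y71H2AR.2*, *F56A6.5*, *W04G5.8*, *W04G5.16*, *K02E7.10*, *T20D4.7*, *zig-13*, *B0507.7* and *srw-23* are 10 genes of the oomycete recognition response (ORR), the set of genes that *Caenorhabditis elegans* turns on when it meets oomycetes. They were picked by name from the 29 genes of the study's 50-gene response heatmap that lie outside the *chil*, *pals* and KIN-16 families, among 19988 genes measured. The heatmap genes are those that extract raised over several independent experiments, with the study's wild-type N2 contrast and earlier published data among them. The N2 contrast therefore took part in choosing the 10 genes, and their values in it are given as a description with no test. The choice had no numerical threshold.

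Oomycetes are filamentous, fungus-like eukaryotes, and *Myzocytiopsis humicola* is one that infects nematodes through the cuticle. A nonliving extract of the pathogen is enough to start the ORR, whose best known products are the chitinase-like (CHIL) proteins made in the epidermis. OLD-1 is a receptor tyrosine kinase of the KIN-16 family, which is specific to *C. elegans*, and FLOR-1 is a member of the same family with the features of a pseudokinase. Little is known of the 10 genes. ZIG-13 belongs to a family of proteins with immunoglobulin-like domains, SRW-23 to the serpentine receptors of class W, a chemoreceptor family, and 7 of the others carry a sequence name only.

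All 10 are annotated as protein coding in WBcel235. On chromosome V lie *ddn-1* (8758820 to 8760516, minus strand, 6 exons), *B0507.7* (8757312 to 8758718, minus), *T20D4.7* (3408902 to 3409528, plus, 3 exons) and *srw-23* (16873942 to 16875455, plus, 3 exons). On chromosome I lie *F56A6.5* (582211 to 583729, minus, 3 exons), *W04G5.16* (11648760 to 11649206, minus, 2 exons) and *W04G5.8* (11649982 to 11651825, plus, 7 exons). On chromosome III lie *zig-13* (154389 to 156745, minus, 5 exons) and *Y71H2AR.2* (2839120 to 2840927, minus, 4 exons), and *K02E7.10* is on chromosome II (1065365 to 1067007, minus, 4 exons). *ddn-1* and *B0507.7* are 101 bases apart on the same strand, and *W04G5.8* and *W04G5.16* are 775 bases apart and point away from each other.

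The data are 30 RNA-seq libraries of whole L4 animals, in 10 groups of 3. The extract experiment holds N2, *old-1(ok1273)*, a deletion of *old-1*, and *flor-1(icb93)*, an allele from a chemical mutagenesis, each untreated or with *M. humicola* extract. In the first overexpression experiment, *old-1p::old-1* animals carried *icbEx308*, an extrachromosomal array of OLD-1::GFP driven by the *old-1* promoter with a *bus-1p::GFP* marker, and *icbIs4*, and their controls were animals of the same population without the array, labelled N2(*icbIs5*). In the second, *dpy-7p::old-1* animals carried *icbEx359*, in which the epidermal *dpy-7* promoter drives *old-1* beside a hygromycin resistance gene, and their controls carried *icbEx360*, the resistance gene alone. *icbIs4* and *icbIs5* are *chil-27p::GFP* reporters. In the strain list of the study, *icb93* appears only in a strain that also holds *icbIs5*, which the labels leave out, and *ok1273* appears both with and without that reporter. The labels and the strain list name no *old-1* mutation for the *icbEx308* strain, while a figure legend of the study places this array in *old-1(ok1273)*, so the *old-1* genotype of the siblings is uncertain. Extrachromosomal arrays are lost from some offspring and some cells. Nothing states that the 3 libraries of a group came from separate cultures, so p-values measure the spread between these libraries.

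Library totals ranged from 19214839 to 38956390 counts, and levels are given as CPM, the count scaled to the library total. In bulk RNA, fewer cells of a type and less RNA per cell cannot be told apart. *old-1* itself was at 42.5 to 60.4 CPM in *old-1p::old-1* against 0.575 to 0.978 in the siblings, and at 48.8 to 80.1 CPM in *dpy-7p::old-1* against 0.96 to 1.44 in its control. It was at 1.55 to 3.43 CPM in N2 and 0.548 to 1.22 CPM in *old-1(ok1273)*, so the siblings lay below N2 and within the range of the mutant. The hygromycin control and *flor-1(icb93)*, at 1.1 to 1.54 CPM, also lay below N2 and reached into that range. The *old-1* level therefore does not settle the genotype of the siblings. Markers of epidermis, body wall muscle, intestine, neurons and pharynx were expressed in every group, with at most 2 of 8 epidermis markers at 0 in some library. The mean log2 CPM of 15 yolk and oocyte genes, which mark the passage to adulthood, separated libraries within groups: it was 0.94 in untreated N2 replicate A, but 5.41 in B and 5.99 in C, against 0.71 to 1 with extract. It was 7.5 in *old-1p::old-1* replicate A, against 10.28 in B and 10.58 in C, and 5.36 in sibling replicate C, against 8.9 in A and 8.77 in B.

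In extract-treated N2 all 10 genes lay above untreated N2 with no overlap between libraries, as did 19.9% of the 16850 genes fitted. *ddn-1* had 3.02, 1.91 and 2.42 CPM in the untreated libraries and 1080, 997 and 1050 CPM with extract. *Y71H2AR.2* had 0 counts in all 3 untreated libraries and 75, 82.7 and 82.2 CPM with extract, which is at least 1970-fold higher against a floor of 3 counts over the untreated group. *F56A6.5* had 2 counts in all in untreated N2 and 113, 127 and 162 CPM with extract. Another 2 genes were nearly silent without extract, *zig-13* with 1 count and *W04G5.16* with 3 over the untreated group. *srw-23* was the weakest of the 10, with 0.885, 1.62 and 0.96 CPM with extract and 1 count in all without it.

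In the same contrast *K02E7.10* had 1.33 ± 0.341 CPM (SD, n = 3) untreated and 149 CPM with extract, *T20D4.7* had 0.688 and 47.7 CPM, *W04G5.8* had 0.362 and 28.6 CPM, and *B0507.7* had 0.367 and 27.2 CPM. The fitted log2 fold change was 8.67 for *ddn-1*, 6.78 for *K02E7.10*, 6.28 for *W04G5.8*, 6.09 for *B0507.7* and 6.06 for *T20D4.7*. Of the 16850 genes fitted, 14.7% passed the thresholds as higher and 20.4% as lower in this contrast. Nothing is read from the 10 genes against it, since it took part in choosing them. Per length, in TPM (the share of all transcripts, scaled as CPM is), *ddn-1* reached 666 ± 23.5 with extract (SD, n = 3) and *F56A6.5* reached 215 ± 41.3. *K02E7.10* at 131 ± 9.17 and *T20D4.7* at 125 ± 15 TPM did not differ beyond their spread. *Y71H2AR.2* had 88.2 TPM, *B0507.7* 30.2, *W04G5.8* 20.9, *zig-13* 12.6 and *srw-23* 0.83. *W04G5.16* is left out of this order because its transcript in the files has 171 bases, where that of WBcel235 has 398. The effective length in the files is only 25.9 to 45.

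**Figure D1:**
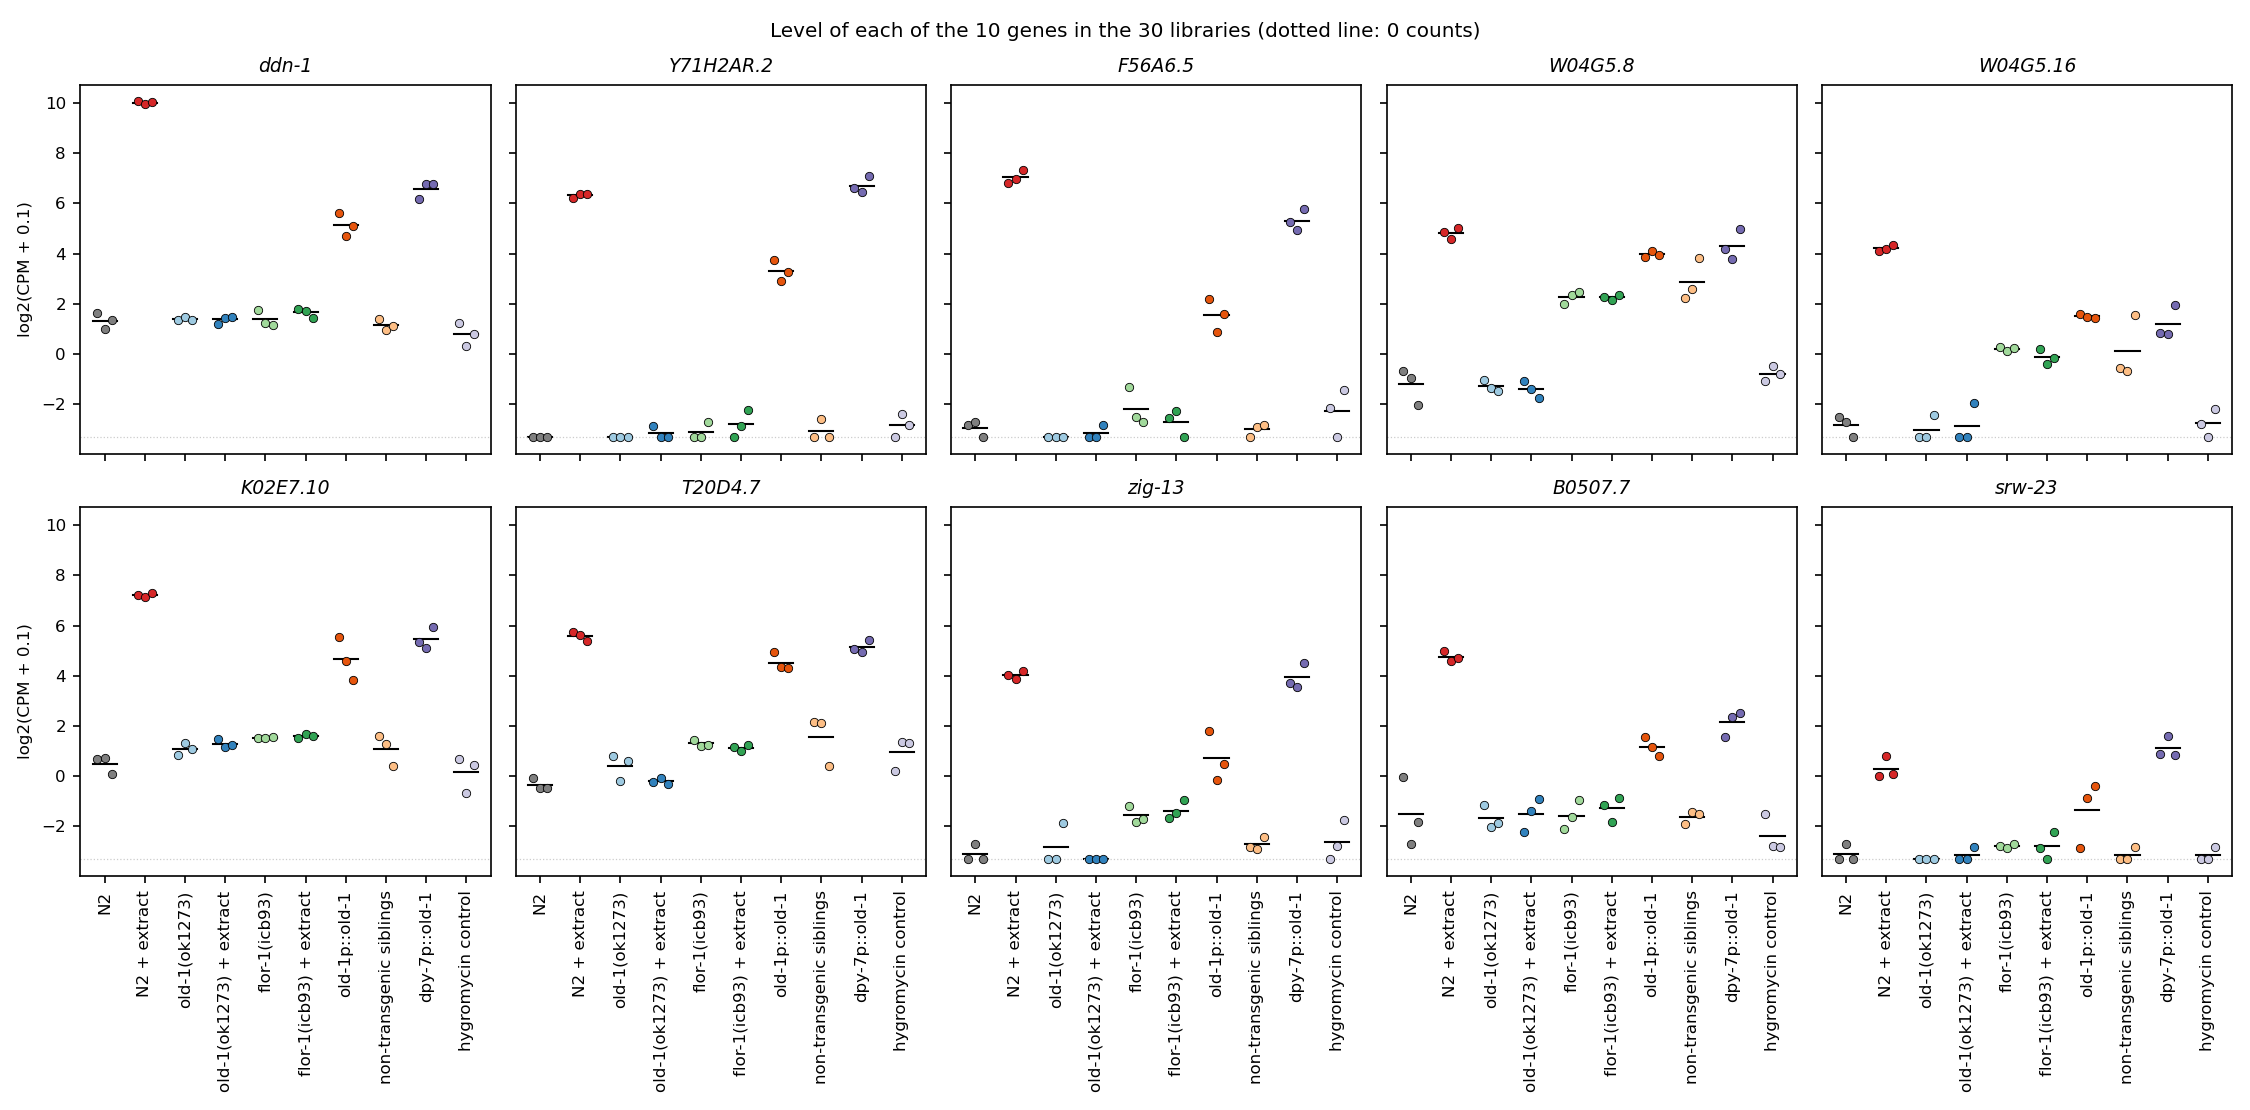
Level of each of the 10 genes, as log2(CPM + 0.1), in the 30 libraries, 1 point per library, with a bar at the mean of the 3 log2 values of each group and a dotted line at 0 counts. All 3 extract-treated N2 libraries sit above untreated N2 in every panel, and *W04G5.8* is the gene whose *flor-1(icb93)* and sibling libraries stand clearest above N2.

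In *old-1(ok1273)* none of the 10 genes was called higher with extract, and *T20D4.7* was called lower. A call means p under 0.01 and an adjusted p under 0.1 in edgeR's quasi-likelihood test across all genes, and in this contrast 12.7% of 16850 genes were called higher and 11.3% lower. *ddn-1* had 2.42, 2.65 and 2.45 CPM untreated and 2.21, 2.58 and 2.7 CPM with extract. The 95% interval of its log2 fold change was -0.4 to 0.3, where the N2 libraries gave 8.67. *K02E7.10* had 2.02 CPM untreated and 2.36 with extract, with an interval of -0.14 to 0.48. For these 2 genes the groups overlapped and the intervals bound the change below 1 on the log2 scale.

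*T20D4.7* had 1.64, 0.761 and 1.42 CPM in untreated *old-1(ok1273)* and 0.738, 0.835 and 0.705 CPM with extract. The groups overlapped through untreated replicate B, and the log2 fold change was -0.77 (SE 0.23, adjusted p = 0.0226). The call was lost without replicate A or C of either group, where the adjusted p was 0.0725 to 0.177, and it was lost with limma, with the yolk covariate and with the 2 compared groups alone. The adjusted p ranged from 0.000734 to 0.177 over the alternatives. *Y71H2AR.2*, *F56A6.5*, *zig-13*, *W04G5.16* and *srw-23* had at most 4 counts over the 3 libraries of either treatment. A small change between the treatments was therefore not detectable at this depth. Over the 3 extract-treated N2 libraries these genes had 5820, 9851, 1169, 1343 and 86 counts, in that order. An *old-1(ok1273)* group at 0 counts allows up to 3 counts, for counting error only. That is 0.0405 CPM untreated and 0.0386 CPM with extract.

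In *flor-1(icb93)* none of the 10 genes was called in either direction, and none had an unadjusted p under 0.05, beside 3.82% of all genes. In this contrast 0% of 16850 genes were called, higher or lower, in edgeR's test, while DESeq2 called 6 higher and 28 lower, none of them among the 10. *ddn-1* had 3.26, 2.24 and 2.11 CPM untreated and 3.37, 3.18 and 2.61 CPM with extract. *W04G5.8* had 3.89, 5.02 and 5.49 CPM untreated and 4.73, 4.37 and 5 CPM with extract. The groups overlapped in both, and the intervals of their log2 fold changes were -0.05 to 0.61 and -0.51 to 0.42. Whether the extract response of either mutant differs from that of N2 was not tested for these genes, since N2 took part in choosing them.

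Every one of the 10 genes rose in animals that expressed *old-1* in the epidermis. All 10 were called higher in *dpy-7p::old-1* against the hygromycin control, in a contrast where 24.9% of 16141 genes were called higher and 20.9% lower, and in all of them every *dpy-7p::old-1* library lay above every control library, as in 35.5% of all genes. Their median log2 fold change was 5.53, beside a median of -0.09 over all genes tested. The call held for all 10 under each of the 14 alternatives. These included the yolk covariate, but the yolk and oocyte mean did not overlap between the 2 groups. That covariate therefore cannot adjust between them, and nothing is concluded from the calls it kept.

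*Y71H2AR.2* had 96.7, 86.6 and 138 CPM in *dpy-7p::old-1* and 0, 0.0873 and 0.0389 CPM in the control. The control group held 3 counts in all, so the ratio was 2580 with a 95% counting interval of 882 to 12500, and the fitted log2 fold change was 11.07 (SE 0.38, adjusted p = 5.55e-07). *F56A6.5* had 38, 30.5 and 54.2 CPM against 0.124, 0 and 0.272 CPM, a log2 fold change of 8.07 (SE 0.43, adjusted p = 4.06e-06). In both genes the control libraries were at or close to 0 counts and every *dpy-7p::old-1* library was well above them.

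*zig-13*, the immunoglobulin-domain gene, had 13.1, 11.7 and 22.6 CPM against 0, 0.0437 and 0.194 CPM, a log2 fold change of 7.39 (SE 0.52, adjusted p = 1.04e-05). *srw-23*, the serpentine receptor gene, had 1.74, 2.87 and 1.67 CPM, and 1 count in all in the control, a ratio of 152 with a counting interval of 26.8 to 6030. It rose (adjusted p = 4.84e-05) but stayed a gene of low level. *ddn-1* had 73.1, 109 and 110 CPM against 2.27, 1.14 and 1.63 CPM, a log2 fold change of 5.74 (SE 0.21, adjusted p = 5.55e-07). *B0507.7*, next to it, had 2.85, 4.93 and 5.6 CPM against 0.248, 0.0437 and 0.0389 CPM, a log2 fold change of 5.17 (SE 0.5, adjusted p = 4.23e-05). Both were lowest in replicate 1 of *dpy-7p::old-1*.

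*W04G5.8* had 18, 13.8 and 31.4 CPM against 0.371, 0.611 and 0.467 CPM, a log2 fold change of 5.33 (SE 0.39, adjusted p = 1.14e-05). *W04G5.16* had 1.67, 1.63 and 3.75 CPM against 0.0413, 0 and 0.117 CPM, a log2 fold change of 5.19 (SE 0.67, adjusted p = 0.000207). *K02E7.10* had 40.1, 34.4 and 62 CPM against 1.49, 0.524 and 1.24 CPM. These 3 genes were highest in replicate 3 of *dpy-7p::old-1*, as were *Y71H2AR.2*, *F56A6.5* and *zig-13*. *T20D4.7* had 33.1, 30.9 and 42.4 CPM against 1.03, 2.44 and 2.41 CPM, and its log2 fold change of 4.05 (SE 0.3, adjusted p = 1.19e-05) was the smallest of the 10. For *K02E7.10* the log2 fold change was 5.28 (SE 0.31, adjusted p = 4.87e-06).

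Tissue markers moved with this contrast. The summed level of 5 intestine markers was 1470 to 1630 CPM in *dpy-7p::old-1* against 2570 to 2840 in the control. That of 5 body wall muscle markers was 7590 to 8490 against 13100 to 13500. For 8 epidermis markers it was 1940 to 2000 against 2180 to 2730. The mean log2 CPM of these 8 overlapped, at 4.91 to 5.83 against 4.49 to 5.66 in the control. The yolk and oocyte mean was 9.76 to 10.29 against 9 to 9.39. None of the muscle, intestine or yolk markers was at 0, and 1 of the 8 epidermis markers was at 0 in some control library. The part of these in the change of the 10 genes was not tested, and the yolk covariate cannot adjust for it because the groups did not overlap.

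With *old-1* under its own promoter, *ddn-1*, *Y71H2AR.2* and *F56A6.5* rose. These are 3 of the 9 genes that passed the filter on low counts, in a contrast where 0.0921% of 16285 genes, 15 in all, were called higher and 0.0246% lower. The median log2 fold change of the 9 was 3.64, beside 0.11 over all genes tested, and 7 of the 9 had an unadjusted p under 0.05, beside 19.2% of all genes tested. In 8 of the 10 genes every *old-1p::old-1* library lay above every sibling library, as in 16.8% of all genes tested. The overlaps were in *W04G5.16* and *srw-23*.

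*ddn-1* had 49.7, 25.9 and 34.2 CPM in *old-1p::old-1* and 2.49, 1.82 and 2.05 CPM in the siblings, a log2 fold change of 4.04 (SE 0.31, adjusted p = 0.0254). *Y71H2AR.2* had 13.4, 7.41 and 9.6 CPM against 2 counts in all in the siblings, a ratio of 404 with a 95% counting interval of 111 to 3340 (adjusted p = 0.0444). *F56A6.5* had 4.44, 1.71 and 2.93 CPM, also against 2 sibling counts, a ratio of 121 with an interval of 33.2 to 1010 (adjusted p = 0.0605). In all 3 genes replicate A was the highest *old-1p::old-1* library and replicate B the lowest.

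Another 5 genes did not pass the adjusted threshold although their libraries did not overlap, *W04G5.8*, whose values are given with its locus, and 4 others. *K02E7.10* had 47, 23.9 and 14.1 CPM against 2.89, 2.28 and 1.23 CPM (log2 fold change 3.64, SE 0.53, adjusted p = 0.111). *T20D4.7* had 30.7, 20.1 and 19.4 CPM against 4.36, 4.16 and 1.23 CPM (2.77, SE 0.5, adjusted p = 0.136). *zig-13* had 3.36, 0.782 and 1.29 CPM against 4 sibling counts in all (4.93, SE 0.77, adjusted p = 0.115). As in the called genes, replicate A was highest in each. *B0507.7* had 2.83, 2.12 and 1.64 CPM against 0.163, 0.264 and 0.246 CPM (3.19, SE 0.42, adjusted p = 0.111). *srw-23* was too low to be tested, with 1, 12 and 17 counts in *old-1p::old-1* and 1 count in all in the siblings, and it was lowest in replicate A, the library in which the 7 genes above were highest and the yolk and oocyte genes lowest.

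The number of the 10 genes called in this experiment depended on single libraries. It was 0 without *old-1p::old-1* replicate B, without replicate C, without sibling replicate A and without sibling replicate B, and it was 8 without *old-1p::old-1* replicate A. That last fit called 1575 genes higher and 2175 lower over the whole genome. Tissue markers differed here too, with a summed intestine level of 949 to 1770 CPM in *old-1p::old-1* against 2400 to 2740 in the siblings, a muscle level of 3870 to 9950 against 8260 to 8970 and a pharynx level of 306 to 736 against 762 to 798. The summed epidermis level overlapped, at 1080 to 1350 against 1120 to 1370 CPM, but the mean log2 CPM of the 8 epidermis markers did not, at 4.17 to 5.76 against 5.85 to 6.4, and 1 of the 8 was at 0 in some *old-1p::old-1* library. Their part in the changes was not tested.

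**Figure D2:**
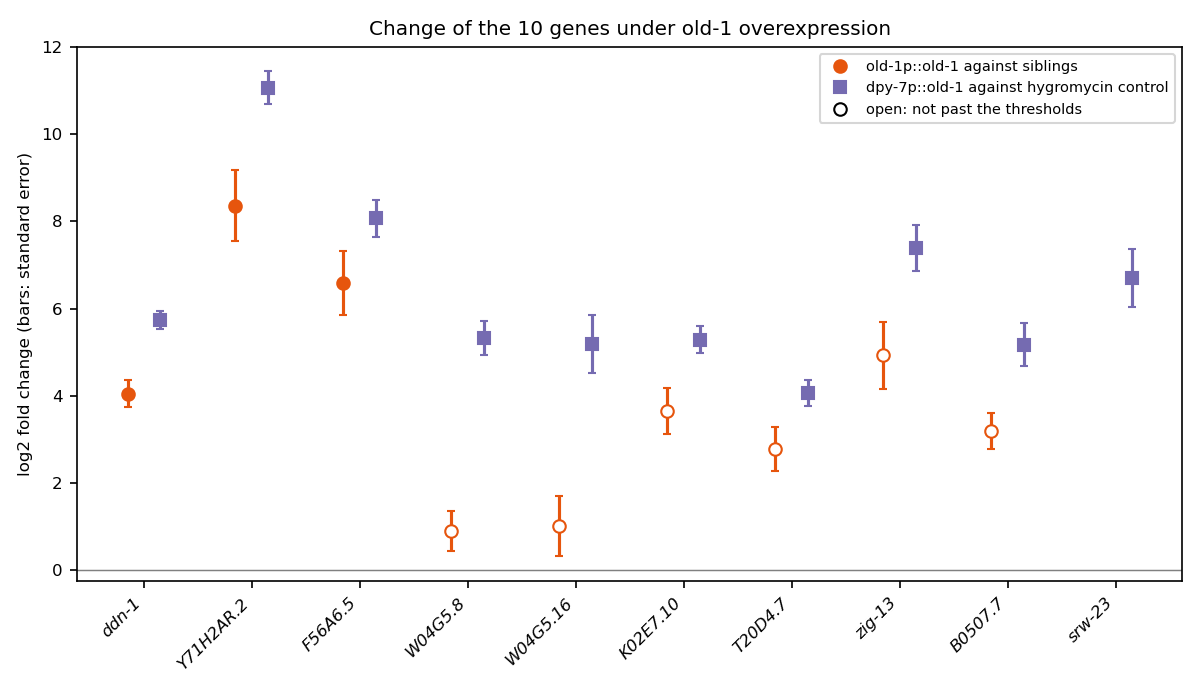
Log2 fold change of each of the 10 genes in *old-1p::old-1* against its siblings (circles) and in *dpy-7p::old-1* against the hygromycin control (squares), each from 3 libraries against 3, with bars for the standard error and open symbols where the thresholds were not passed. The squares lie between 4.05 and 11.07 and all are filled, the circles lie between 0.9 and 8.36 with 3 filled, and *srw-23* has no circle because it was not tested.

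The log2 fold change in *dpy-7p::old-1* exceeded that in *old-1p::old-1* for all 10 genes, by 1.41 to 4.54 with a median of 2.3. The difference passed the test for 3 of them, in a comparison where 2.84% of 16890 genes were called higher and 3.2% lower and the median over all genes was 0.12. With RLE in place of TMM scaling that median was -0.03, and 25.1% of the calls over all genes were higher in place of 47%, while 3 of the 10 genes were still called. For *ddn-1* the difference was 1.85 (SE 0.37, adjusted p = 0.0256), for *W04G5.8* it was 4.54 (SE 0.64, adjusted p = 0.0058) and for *W04G5.16* it was 4.33 (SE 1.11, adjusted p = 0.0631). The 95% intervals of *Y71H2AR.2* (-0.68 to 6.44), *F56A6.5* (-2.12 to 5.41), *zig-13* (-0.53 to 5.72) and *srw-23* (-3.49 to 8.41) took in 0, so these genes were not shown to differ or to respond alike. Construct, control and experiment change together here and cannot be told apart.

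The *ddn-1* difference rested on the transgenic libraries, since its level was 2.12 CPM in the siblings and 1.68 CPM in the hygromycin control. For the W04G5 pair it lay in the controls. *W04G5.8* reached 15.7 CPM in *old-1p::old-1* and 21 CPM in *dpy-7p::old-1*, but its sibling level of 8.11 CPM was 16.8 times the hygromycin control level, and the sibling level of *W04G5.16* was 24.9 times that of its control. The call for *W04G5.16* was lost in 10 of 20 alternatives, among them each fit without a *dpy-7p::old-1* library (adjusted p = 0.109 to 0.148), without a hygromycin control library (0.111 to 0.157) or without *old-1p::old-1* replicate B or C (0.152 and 0.113). Without single libraries, 2 to 5 of the 10 genes were called as differing, 5 of them without sibling replicate C.

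**Figure D3:**
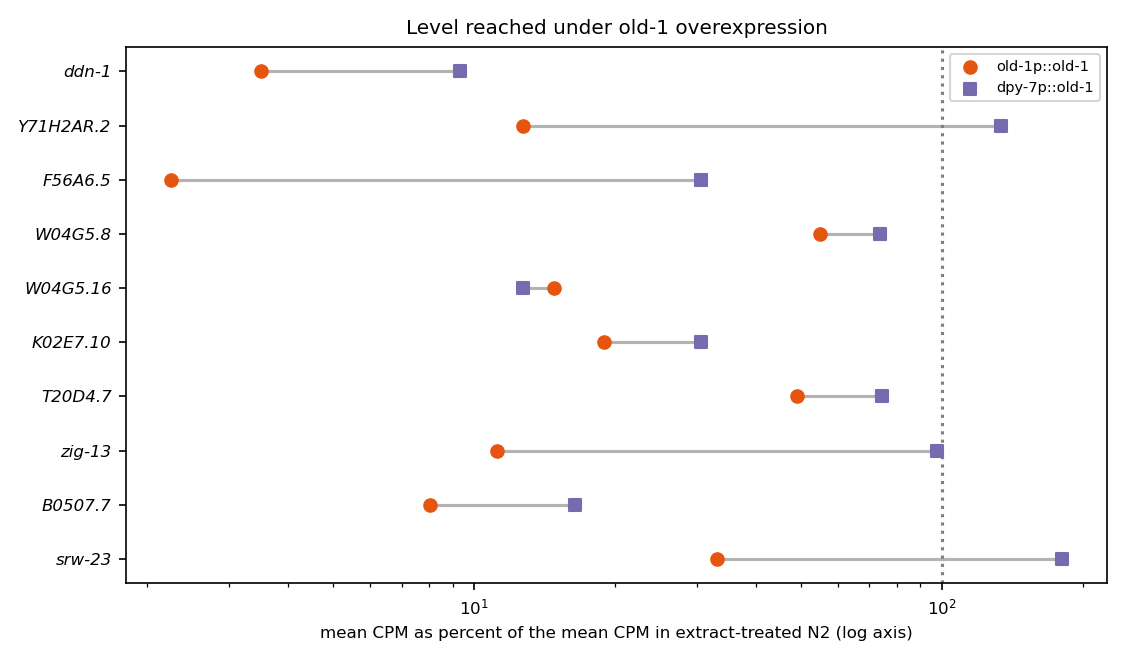
Mean CPM of each of the 10 genes in *old-1p::old-1* (circles) and *dpy-7p::old-1* (squares) as a percent of its mean CPM in extract-treated N2, on a log axis, with a dotted line at 100%. *ddn-1* stays at or under 9.35% in both, and *srw-23* and *Y71H2AR.2* pass 100% in *dpy-7p::old-1*.

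Set beside the level in extract-treated N2, which comes from other libraries and was not tested, the 10 genes were spread widely. In *dpy-7p::old-1*, *srw-23* stood at 181% of the extract level, *Y71H2AR.2* at 134% and *zig-13* at 97.4%. *T20D4.7* (74.3%) and *W04G5.8* (73.6%) came next, and *F56A6.5* and *K02E7.10* were both at 30.5%. *B0507.7* (16.4%), *W04G5.16* (12.7%) and *ddn-1* (9.35%) stayed furthest below it. In *old-1p::old-1* the range was from 2.25% for *F56A6.5* and 3.51% for *ddn-1* to 49% for *T20D4.7* and 54.9% for *W04G5.8*. The order of the genes per length changed with it. *ddn-1*, the most abundant of the 10 with extract, had 63.8 ± 14.1 TPM in *dpy-7p::old-1* (SD, n = 3), close to *F56A6.5* with 67.4 ± 18.1 and below *Y71H2AR.2* with 121 ± 27.1 and *T20D4.7* with 96.7 ± 13.9.

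*W04G5.8* and *W04G5.16* were raised without any inducer in *flor-1(icb93)* and the siblings. *T20D4.7* also lay above untreated N2 (0.614 to 0.83 CPM), at 2.21 to 2.62 CPM in untreated *flor-1(icb93)* and 1.23 to 4.36 CPM in the siblings. *zig-13* had 0.181 to 0.338 CPM in untreated *flor-1(icb93)* against 0 to 0.0516 CPM in untreated N2. Both overlapped the hygromycin control, at 1.03 to 2.44 and 0 to 0.194 CPM. *K02E7.10* had 2.71 to 2.8 CPM in untreated *flor-1(icb93)*, above untreated N2 (0.939 to 1.55) and the hygromycin control (0.524 to 1.49). It was also above N2 in untreated *old-1(ok1273)* (1.68 to 2.36 CPM), but overlapped N2 in the siblings (1.23 to 2.89 CPM). *W04G5.8* was at 0.144 to 0.611 CPM in untreated N2, in *old-1(ok1273)* with or without extract and in the hygromycin control. It was at 3.89 to 5.49 CPM in the 6 *flor-1(icb93)* libraries and at 4.56, 5.84 and 13.9 CPM in the siblings. No library of the second set reached down to the first. *W04G5.16* had 0 to 4 counts per library in the first set, and 18 to 42 counts in the *flor-1(icb93)* libraries and 14, 16 and 69 in the siblings. Sibling replicate C, the highest in both genes, was the sibling library with the lowest yolk and oocyte mean. In *old-1p::old-1* *W04G5.8* had 14.6, 17.3 and 15.3 CPM (log2 fold change 0.9, SE 0.46, adjusted p = 0.296 against the siblings), with replicate C of the siblings within 1 CPM of its lowest library. *W04G5.16* had 2.94, 2.64 and 2.61 CPM against 0.57, 0.528 and 2.83 CPM (log2 fold change 1, SE 0.69, adjusted p = 0.397).

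Of the neighbours of the pair, *W04G5.7* and *W04G5.10* split along the same libraries, while *W04G5.9*, which lies between *W04G5.10* and *W04G5.16*, was not called between the mutants (log2 difference -0.46, adjusted p = 0.34). *W04G5.7*, 963 bases from *W04G5.8*, had 0 counts in every untreated N2, *old-1(ok1273)* and hygromycin control library, 11 counts over untreated and 6 over extract-treated *flor-1(icb93)*, 10 over the siblings, 47 over *old-1p::old-1*, 29 over *dpy-7p::old-1* and 421 over extract-treated N2. *W04G5.10*, 8345 bases from *W04G5.16*, had 0 counts in all 12 libraries of *flor-1(icb93)*, the siblings and *old-1p::old-1*, and 2 to 34 counts in each of the other 18. It was the only one of 19988 genes at 0 in all of those 12 libraries and counted in all of the other 18, a count made after its values were seen, and no gene had the reverse pattern. Those 12 libraries are the ones for which the labels or the strain list name an *icbIs4* or *icbIs5* reporter. For *old-1(ok1273)* the strain list allows either. Reporter, strain history and library preparation cannot be told apart here.

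**Figure D4:**
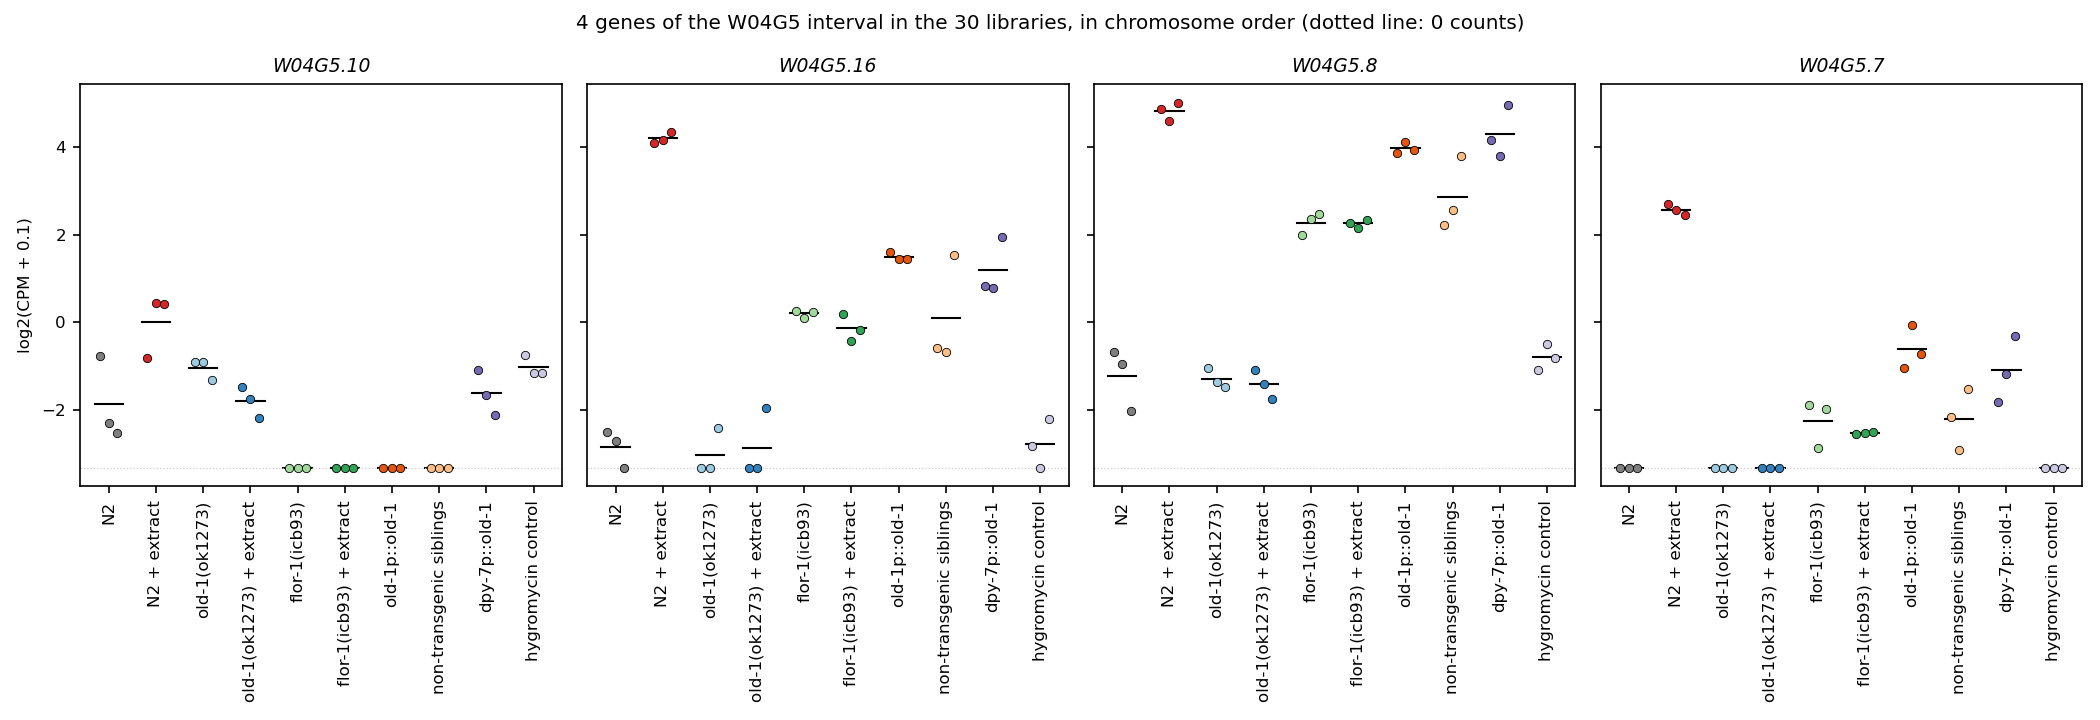
Level of 4 genes of the W04G5 interval, as log2(CPM + 0.1), in the 30 libraries, in their order along chromosome I with *W04G5.9* left out, with a bar at the mean of the 3 log2 values of each group and a dotted line at 0 counts. *W04G5.10* sits at 0 counts in the 12 *flor-1(icb93)*, *old-1p::old-1* and sibling libraries, in which *W04G5.8*, *W04G5.16* and *W04G5.7* lie above untreated N2.

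The 2 genes of the pair did not keep 1 ratio. Over the 3 extract-treated N2 libraries there were 1.53 counts of *W04G5.8* for each count of *W04G5.16*, with 1.34 to 1.7 in single libraries. In *dpy-7p::old-1* there were 9.04 (8.39 to 10.8), in *old-1p::old-1* 5.73 (4.95 to 6.54) and in untreated *flor-1(icb93)* 4.68 (3.54 to 5.15). The N2 extract range lay below the ranges of the other groups in which every library had counts of *W04G5.16*. Groups in which a library had no such count have no range. No test was made, and the very short *W04G5.16* transcript in the files makes its counts sensitive to fragment length.

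Between the mutants, with untreated and extract libraries averaged, 4 of the 10 genes were higher in *flor-1(icb93)* than in *old-1(ok1273)* and none lower, in a comparison where 36.3% of 16850 genes were called higher and 29.9% lower. *W04G5.8* was higher by 3.84 on the log2 scale (SE 0.21, adjusted p = 2.8e-10) and *W04G5.16* by 4.34 (SE 0.49, adjusted p = 9.26e-07), and no library of the 2 strains overlapped in either gene. *T20D4.7* had 1.91 to 2.62 CPM in *flor-1(icb93)* against 0.705 to 1.64 CPM, a log2 difference of 1.03 (SE 0.15, adjusted p = 1.46e-05). *zig-13* had 5 to 11 counts in each *flor-1(icb93)* library, and in *old-1(ok1273)* 4 counts in 1 untreated library and 0 in the other 5, a log2 difference of 3.86 (SE 0.76, adjusted p = 0.000401). With 4 of 10 against 36.3% of all genes, the count is close to the background. With the yolk covariate *T20D4.7*, *zig-13* and *W04G5.16* no longer passed (adjusted p = 0.055, 0.37 and 0.0728) while *W04G5.8* still did (5.93e-05) and *B0507.7* was gained (log2 difference 3.39, adjusted p = 0.0122). Without the covariate the log2 difference of *B0507.7* was 0.14. The yolk and oocyte mean separated the 2 strains completely, at 6.75 to 7.01 in the *flor-1(icb93)* libraries against 0.32 to 1.25 in *old-1(ok1273)*. The covariate therefore cannot adjust between these strains, and nothing is concluded from the calls it kept, lost or gained. The mean of the epidermis markers separated the strains as well, at 6.21 to 6.56 against 3.41 to 5.07. The length of fragments that kallisto assumed also differed, with 154.6 to 165.4 bases between transcript and effective length in the *flor-1(icb93)* libraries and 239.8 to 273.4 in the others, and its part was not tested.

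*ddn-1* and *B0507.7* sit in a run of 3 genes on the same strand that were all called higher in *dpy-7p::old-1*. In *old-1p::old-1* only *ddn-1* of the 3 was called, with *B0507.8* at 4.39 (adjusted p = 0.177). The flanking *B0507.4*, *B0507.5* and *B0507.9* were also higher in extract-treated N2, by 4.08, 3.67 and 2.28. In *dpy-7p::old-1* *B0507.9* was not called (0.33, adjusted p = 0.55) and the other 2 were not tested. *B0507.8*, also a heatmap gene, lies 105 bases beyond *ddn-1* and rose in *dpy-7p::old-1* by 6.23 on the log2 scale (adjusted p = 3.65e-06), beside 5.74 for *ddn-1* and 5.17 for *B0507.7*. *B0507.7* has a second, longer transcript in the files of 1956 bases (the transcript of that name in WBcel235 has 874), which received 253 counts in extract-treated N2, 30.7 in *old-1p::old-1*, 17.9 in *dpy-7p::old-1*, 3.2 in the siblings and 0 in the other 6 groups. These counts are fractions of reads that kallisto shared out, so the split between the transcripts of this run is uncertain.

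*zig-13* also has a near neighbour from the heatmap, *ver-1*, 78 bases away on the other strand. The study lists *ver-1*, a gene of the vascular endothelial growth factor receptor family, under KIN-16. *ver-1* rose by 6.62 in *dpy-7p::old-1* (adjusted p = 5.55e-07), and was higher by 2.66 in *flor-1(icb93)* than in *old-1(ok1273)* (adjusted p = 0.000202). *srw-23* has no gap to *F49A5.10* on the same strand, which rose by 5.58 in *dpy-7p::old-1* (adjusted p = 0.000311). The counts of the *srw-23* transcript were whole numbers in every group, unlike those of *B0507.7*. Whether the 2 genes share reads was not tested. *thn-4*, a thaumatin-family gene 2454 bases from *srw-23*, rose by 10.58 (adjusted p = 9.04e-06). Over all 32 nearest protein-coding neighbours that are not among the 10 genes, 2 on each side, 23 were tested in *dpy-7p::old-1*. Of these 8 were higher and 3 lower, beside 24.9% and 20.9% of all genes tested. Their median log2 fold change was 0.05, beside -0.09 over all genes. In *old-1p::old-1* none of 24 was called, beside 0.0921% of all genes called higher and 0.0246% lower. No heatmap gene was among the 2 nearest genes on either side of *Y71H2AR.2*, *F56A6.5*, *K02E7.10* and *T20D4.7*.

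The other 40 genes of the heatmap give the setting. In *dpy-7p::old-1* all 9 *chil* genes, 4 KIN-16 genes, 8 *pals* genes and 19 further genes were called higher, with medians of 4.18, 4.5, 5.23 and 3.71 on the log2 scale, beside 5.53 for the 10 genes. In *old-1p::old-1* 1 of 9 *chil*, 0 of 4 KIN-16, 0 of 6 tested *pals* and 1 of 16 tested further genes were called higher, with medians of 2.73, 3.34, 3.88 and 3.08, beside 3.64. In neither mutant was any of the 40 called with extract. The difference between the lists was not tested.

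Over the 30 libraries the genes whose log2 CPM followed the mean of the 10 most closely, of 14201 compared, were *pals-33* (Pearson's r = 0.971), *pals-28* (0.969), *fbxa-28* (0.969), *ver-1* (0.965) and *vsra-1* (0.963). All but *fbxa-28*, an F-box gene, are in the heatmap. *fbxa-28* had a mean of 6.24 CPM in extract-treated N2, 8.39 in *dpy-7p::old-1* and 1.32 in *old-1p::old-1*, and 0 counts in untreated N2, both *old-1(ok1273)* groups, the siblings and the hygromycin control. Among the 10 genes themselves r ran from 0.731 between *W04G5.8* and *srw-23* to 0.975 between *ddn-1* and *B0507.7*. The 30 libraries fall into groups of high and low level, so these coefficients describe mainly that split.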

How the data were processed

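Per the labels and methods, the authors quantified reads with kallisto against the WormBase transcriptome (WS283) and tested them with sleuth. The deposited files hold estimated counts per transcript, with length and effective length, not normalized between libraries. Counts were summed per gene through Ensembl release 115 (WBcel235) and rounded. Of 37058 transcripts 30413 matched by name, 6631 by sequence name and 14 were left out. Genes were filtered with filterByExpr (min.count 5, min.total.count 15), TMM-scaled and compared in edgeR 4.0.16 (quasi-likelihood F test, R 4.3.3), with calls at p under 0.01 and Benjamini-Hochberg adjusted p under 0.1 over all genes. The 18 extract libraries were fitted together (12 residual degrees of freedom), each overexpression experiment alone (4), and their difference as an interaction over 12 libraries. TPM was computed from counts and effective lengths. Correlations used log2(CPM + 0.1).

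The 10 genes and all lists were chosen with earlier results of these data known. Text names all 10 genes, *old-1*, up to 2 heatmap genes per class, neighbours as 2 per side and the 5 most alike genes. *W04G5.7*, *W04G5.10* and the other neighbours with values were named after their values were seen. Alternatives were DESeq2 1.42.0, RLE, no filter, a mean of at least 1 CPM, a replicate block, limma 3.58.1 on log2(TPM + 1), an adjusted p under 0.05, a yolk and oocyte covariate, the compared groups alone, leaving out each library and, added after seeing the data, leaving out untreated N2 replicates B and C. Scripts were tested on simulated data. Ratio intervals cover counting error only. No sequence tables for these genes were used here.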

Additional observations from a re-analysis of the deposited data

Results flagged for a closer look

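The change under *dpy-7p::old-1* differed from that under *old-1p::old-1*, by the interaction test of edgeR, in 3 genes: *ddn-1* by 1.85 on the log2 scale (adjusted p = 0.0256), *W04G5.8* by 4.54 (adjusted p = 0.0058) and *W04G5.16* by 4.33 (adjusted p = 0.0631). All 3 were larger under *dpy-7p::old-1*. For *W04G5.8* and *W04G5.16* the sibling libraries were already above the hygromycin control libraries, and for *ddn-1* they were not.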

How the results depend on the processing

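The 10 genes stayed called in *dpy-7p::old-1* under every alternative run, and the N2 description stayed at 10, except at 9 with a mean of at least 1 CPM, which removes *srw-23*. In *old-1p::old-1* the 3 calls became 7 with DESeq2, 6 with limma, 7 with the yolk covariate and 0 with the replicate block, and ranged from 0 to 8 when single libraries were left out. Over all genes, the higher and lower calls there were 15 and 4 in edgeR, 566 and 885 with DESeq2 and 1413 and 541 with the yolk covariate. For the difference between the transgenes 3 calls became 1 with the replicate block and 7 with limma, and 2 to 5 without single libraries, and over all genes 480 higher and 541 lower calls became 15 and 76, and 290 and 813. The single lower call in *old-1(ok1273)* became 0 with limma, the yolk covariate and the compared groups alone, and 0 to 1 without single libraries. The 4 calls between the mutants became 2 with the yolk covariate (*W04G5.8*, and *B0507.7* as a gain), which cannot adjust between these strains. In that fit 2495 and 2605 genes in place of 6115 and 5044 were called. With limma 78.3% of all calls between the mutants were higher in place of 54.8%. Of 117 recounted results 97 kept within 1.5 times. Of 723 single log2 fold changes none reversed, but in contrasts that involve a mutant these covered called genes only. Outside them, *srw-23* went from a log2 difference of 2.38 between the mutants to -5.22 with the yolk covariate. The cause of these shifts was not tested. Whether same-numbered libraries are paired is not stated. Their deviations correlated between -0.46 and 0.34, both ends from *old-1p::old-1* and its siblings, which cannot settle it. The block values (0 of 9 in *old-1p::old-1*) therefore stay as a limit on the calls there. Depth limits *srw-23*, *zig-13*, *Y71H2AR.2* and *F56A6.5*, whose low groups hold 0 to a few counts.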
